A study of Mus musculus with 10 samples.

Results

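The genes described here carry the signal of the T cell receptor (TCR) from the cell surface to NFAT, NF-kappaB and RAS. The list named 38 genes in 7 steps of the pathway. A gene was measured where probe sets naming that gene alone were present in both deposited tables, which held 19054 genes in all, and 37 of the 38 met this. All 37 also passed the filter on dim genes, which left 12489 genes for testing. No probe set named Lck alone in both tables, so Lck, the kinase that first phosphorylates the CD3 chains, was not analysed here. The arrays measured splenic CD3+ T cells of male mice of the Balb/c background, 12 weeks old, wild type or KLF13 knockout. The cells of every sample had been activated for 4 days with plate-coated antibody to CD3 and soluble antibody to CD28, so no resting cells were compared. There were 5 wild-type and 5 knockout samples, each from a mouse of its own by the labels. Arrays are called WT1 to WT5 and KO1 to KO5 by their replicate numbers. The labels do not say how the knockout allele was made.

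KLF13 is a zinc finger transcription factor of the Kruppel-like family, whose members bind CACCC and GC-rich boxes in promoters. When a TCR binds its ligand, Src-family kinases phosphorylate the tails of the CD3 chains, ZAP-70 docks there and phosphorylates the adaptors LAT and SLP-76, and these assemble phospholipase C-gamma, VAV1 and other effectors. Calcium then activates calcineurin and NFAT, and diacylglycerol activates PKC-theta and RASGRP1, until phosphatases, ubiquitin ligases and diacylglycerol kinases end the signal.

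The values are log2 signals, and they lie on 3 separate scales. Replicate 1 and replicates 2 and 3 came in an exon-level table (array medians of 5.21 to 5.23 and of 6.25 to 6.43), and replicates 4 and 5 in a gene-level table. Knockout was therefore compared with wild type within each of these sets, and levels are not compared between sets or between genes. Klf13 itself was lower in the knockout in each set, with log2 differences of -0.62, -0.81 and -1.05, and of -0.86 ± 0.12 (SE, n = 5 per genotype) over all arrays (limma, adjusted p = 0.0127). KO3 stood apart: its correlation with the other exon-level arrays was 0.796 to 0.848, and its interquartile range was 3.10 where the others had 3.43 to 3.57.

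The sequences below show what the KLF-type boxes look like upstream of the genes whose signals differed most in replicates 2 and 3 (Cd3g, Ptprc and Dgka), with Cd3d, which lies head to head with Cd3g on chromosome 9, their starts 1355 bases apart. Each is the 250 bases before a transcription start, 5′ to 3′ on the strand of the gene, from RefSeq on GRCm38.p6. Capitals mark matches, on either strand, to the CACCC box, to the GC box as GGGCGG or to the looser KLF box as CCNCNCCC, and matches of different boxes may overlap. Where RefSeq gave several starts, the first in its table is shown.
Cd3d (chr9:44981536-44981785, + strand): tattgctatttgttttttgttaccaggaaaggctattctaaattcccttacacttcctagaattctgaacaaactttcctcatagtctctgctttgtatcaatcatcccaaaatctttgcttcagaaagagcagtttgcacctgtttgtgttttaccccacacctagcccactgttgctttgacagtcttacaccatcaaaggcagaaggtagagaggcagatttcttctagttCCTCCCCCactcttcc
Cd3g (chr9:44980432-44980681, - strand): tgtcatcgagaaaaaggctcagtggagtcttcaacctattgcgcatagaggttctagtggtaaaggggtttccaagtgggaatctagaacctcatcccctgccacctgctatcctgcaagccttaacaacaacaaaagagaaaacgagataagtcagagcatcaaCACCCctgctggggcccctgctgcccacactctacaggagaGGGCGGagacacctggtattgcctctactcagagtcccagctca
Dgka (chr10:128745085-128745334, - strand): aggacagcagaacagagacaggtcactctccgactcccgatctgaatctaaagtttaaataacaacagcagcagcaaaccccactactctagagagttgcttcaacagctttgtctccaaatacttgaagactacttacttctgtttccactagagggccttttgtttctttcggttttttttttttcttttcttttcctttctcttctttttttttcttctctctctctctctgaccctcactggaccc
Ptprc (chr1:138175306-138175555, - strand): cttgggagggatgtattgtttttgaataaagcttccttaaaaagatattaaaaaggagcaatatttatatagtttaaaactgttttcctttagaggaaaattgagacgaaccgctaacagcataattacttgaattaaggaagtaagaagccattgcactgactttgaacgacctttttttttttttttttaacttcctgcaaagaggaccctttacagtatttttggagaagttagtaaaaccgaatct

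Of these windows, that of Cd3g held 1 CACCC and 1 GGGCGG match, that of Cd3d 1 CCNCNCCC match, and those of Dgka and Ptprc none. The other 3 windows of Dgka did hold matches, and the other window of Ptprc did not. The RefSeq table used here matched 33 of the 38 genes, with 48 windows; Cd28, Cd6, Malt1, Nfatc1 and Ppp3ca were not matched. CACCC was found in 52.1% of these windows and in 52% of all 32851 windows. GGGCGG was found in 43.8% against 32.7%, and CCNCNCCC in 54.2% against 45.9%, while the median GC content was 57.4% against 52.4%. These are letters in a window and say nothing of binding.

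Over all arrays, no TCR pathway gene passed the threshold (0 of 37; limma with the 3 sets as a block, Benjamini-Hochberg adjusted p under 0.05), where 0.585% of all genes tested did. At an unadjusted p under 0.05 there were 9 members, all lower in the knockout, against 14.9% of all genes. The smallest adjusted p of a member was 0.19. The median difference of the members was -0.25 log2, against -0.10 for all genes tested. That median joined sets that differed. In replicate 1 the members' median was -0.08 (all genes -0.02) and 25 of 37 were lower in the knockout, where 53.5% of all genes were. In replicates 2 and 3 it was -0.67 (all genes -0.22) and 37 of 37 were lower, where 65.1% of all genes were. In replicates 4 and 5 it was 0.12 (all genes -0.01) and 12 of 37 were lower, where 52.5% of all genes were. Here and below, values of all genes were not matched for signal level unless bands of level are named. The members were mostly bright: 18 of 37 lay in the brightest of 10 bands of genes, whose median in replicates 2 and 3 was -0.67.

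Counting arrays that did not overlap used the same values as the medians above, so it describes the same contrast between sets in another way. In replicates 2 and 3, both knockout arrays lay below both wild-type arrays for 34 members, where 43.1% of all genes did so, and above for 0, where 11.7% did. The 3 members that overlapped were Bcl10, Ptpn22 and Dgkz. In replicates 4 and 5 the knockout lay above for 17 members, where 20.3% of all genes did so, and below for 5, where 26% did. These shares of all genes were not matched for signal level. The members lower in all 3 sets numbered 8 (all genes, 24.8%): Cd3g, Cd247, Cd28, Lcp2, Vav1, Themis, Malt1 and Ptpn6. After quantile normalization within each set, which gives all arrays of a set the same distribution, Themis and Malt1 were the 2 members still lower in all 3 (all genes, 15.4%). Directions therefore depended on the scaling: under it 9 members turned from lower to higher in replicate 1, 14 in replicates 2 and 3 and 6 in replicates 4 and 5, and none turned the other way. The 14 were Cd3d, Cd3e, Cd5, Cd6, Fyn, Lat, Lcp2, Nck1, Bcl10, Nfatc1, Cblb, Ptpn6, Ptpn22 and Dgkz. The values that follow are as deposited. With them, none was higher in all 3 sets, as 11.2% of all genes were. In these bulk samples, fewer cells of a type and less RNA per cell cannot be told apart.

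**Figure D1:**
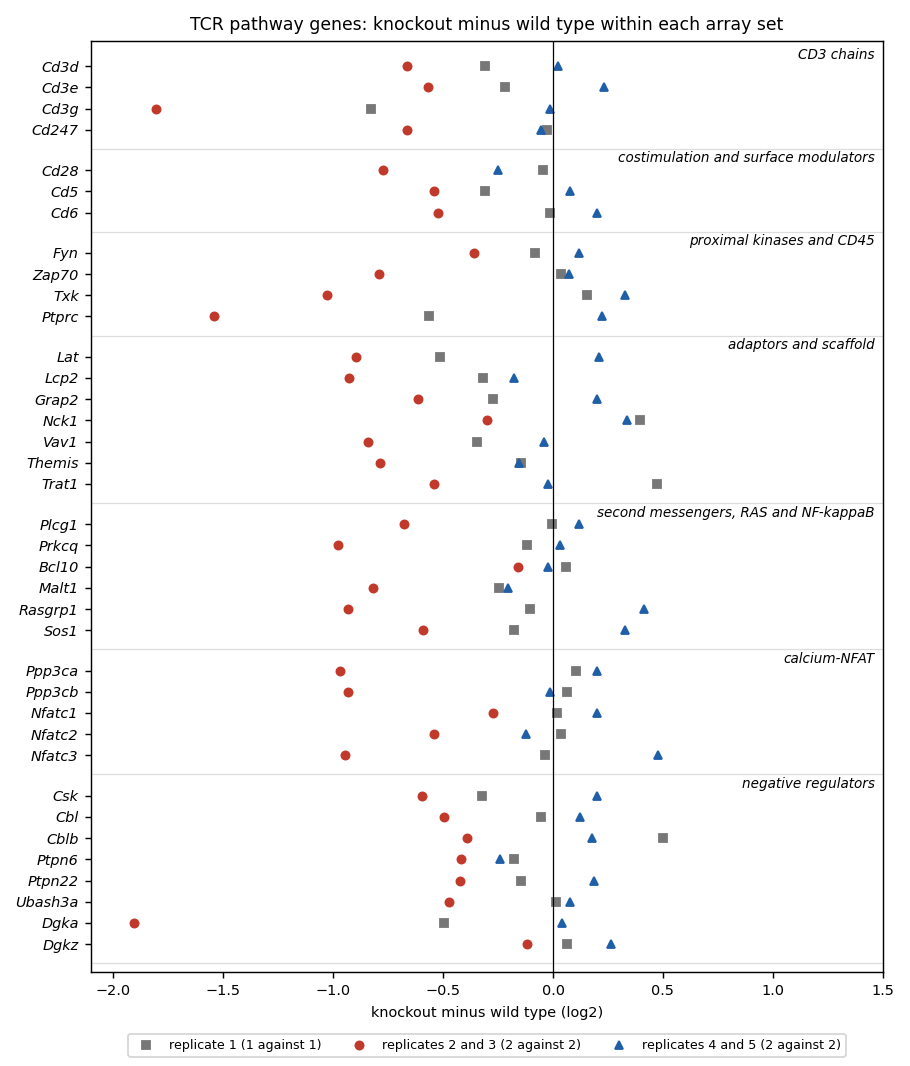
Knockout minus wild type (log2, x axis) for the 37 TCR pathway genes in order of pathway step, with 1 point per gene for replicate 1, for replicates 2 and 3 and for replicates 4 and 5. All points of replicates 2 and 3 lie left of 0, from -1.90 for Dgka to -0.12 for Dgkz, and those of replicates 4 and 5 lie between -0.25 and 0.48; under quantile normalization 14 of the points of replicates 2 and 3 turn to the right of 0.

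The CD3 chains are the signalling subunits that pair with the TCR and carry its phosphorylation sites. All 4 were lower in the knockout in replicates 2 and 3, with a median of -0.67, and their median in replicates 4 and 5 was 0.00. Cd3g, the gamma chain, read 11.93 in WT1 and 11.10 in KO1, 12.95 (WT2) and 13.03 (WT3) against 11.09 (KO2) and 11.28 (KO3), and 11.71 (WT4) and 11.74 (WT5) against 11.61 (KO4) and 11.81 (KO5). The knockout arrays were thus below wild type in the exon-level table as deposited, while the genotypes overlapped in the gene-level table. The difference of Cd3g was -1.80 in replicates 2 and 3, -0.01 in replicates 4 and 5, and -0.89 ± 0.26 (SE, n = 5 per genotype) over all arrays (limma, adjusted p = 0.19). Under quantile normalization it was -0.42 in replicates 2 and 3 and turned to 0.10 in replicate 1, and Cd3g had no exon-level probe set with a mean under 10, where KO2 was less compressed, as described below.

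Cd3d, the delta chain, read 9.42 in WT1 and 9.12 in KO1, 10.38 (WT2) and 10.28 (WT3) against 9.83 (KO2) and 9.50 (KO3), and 9.74 (WT4) and 10.06 (WT5) against 9.94 (KO4) and 9.90 (KO5). It too separated in replicates 2 and 3 and overlapped in replicates 4 and 5, with an all-array difference of -0.32 ± 0.15 (SE; adjusted p = 0.341). Cd3e, the epsilon chain, differed by -0.57 in replicates 2 and 3 and by 0.23 in replicates 4 and 5, where both knockout arrays were above wild type. Cd247, which encodes the zeta chain, differed by -0.67 and -0.05, and all 5 of its knockout arrays lay below the wild-type mean of their set.

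Of the surface receptors that modulate the signal, all 3 were lower in replicates 2 and 3, with a median of -0.54, and their median in replicates 4 and 5 was 0.08. Cd28, the costimulatory receptor that the culture antibody engaged, read 9.11 in WT1 and 9.07 in KO1, 10.21 (WT2) and 10.31 (WT3) against 9.62 (KO2) and 9.36 (KO3), and 9.22 (WT4) and 9.49 (WT5) against 9.13 (KO4) and 9.09 (KO5). Its knockout arrays were below wild type in every set without overlap, although the gap in replicate 1 was 0.05 log2 and turned to 0.10 higher under quantile normalization. The differences were -0.78 in replicates 2 and 3, -0.25 in replicates 4 and 5, the lowest of the members there, and -0.42 ± 0.14 (SE, n = 5 per genotype) over all arrays (limma, adjusted p = 0.247).

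Cd5, which dampens TCR signals in proportion to their strength, read 9.15 in WT1 and 8.84 in KO1, 10.56 (WT2) and 10.58 (WT3) against 9.99 (KO2) and 10.07 (KO3), and 9.24 (WT4) and 9.70 (WT5) against 9.53 (KO4) and 9.57 (KO5). The knockout arrays were lower in the exon-level table and lay between the wild-type arrays in the gene-level table. Its all-array difference was -0.25 ± 0.14 (SE; adjusted p = 0.414). Cd6, a related scavenger receptor, differed by -0.52 in replicates 2 and 3 and by 0.20 in replicates 4 and 5.

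Among the proximal kinases and CD45, all 4 measured genes were lower in replicates 2 and 3 (median -0.91). In replicates 4 and 5 all 4 had both knockout arrays above wild type (median 0.17), where 20.3% of all genes did so. The gap was narrow for Zap70, with KO5 at 8.68 and WT5 at 8.65. Ptprc encodes CD45, the phosphatase that keeps Src-family kinases ready to act. It read 10.93 in WT1 and 10.37 in KO1, 12.59 (WT2) and 12.67 (WT3) against 10.92 (KO2) and 11.26 (KO3), and 11.09 (WT4) and 10.99 (WT5) against 11.22 (KO4) and 11.30 (KO5). The genotypes were therefore separate in both 2-against-2 sets but in opposite order, with differences of -1.54 and 0.22. Over all arrays Ptprc differed by -0.64 ± 0.26 (SE, n = 5 per genotype; limma, adjusted p = 0.29).

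Zap70, the kinase recruited to phosphorylated CD3, read 7.92 in WT1 and 7.96 in KO1, 9.26 (WT2) and 9.25 (WT3) against 8.82 (KO2) and 8.10 (KO3), and 8.63 (WT4) and 8.65 (WT5) against 8.75 (KO4) and 8.68 (KO5). Only replicates 2 and 3 placed it lower, and its all-array difference was -0.28 ± 0.18 (SE; adjusted p = 0.45). Txk, a kinase of the Tec family, differed by -1.03 in replicates 2 and 3, with KO2 at 7.98 and KO3 at 6.80 against 8.44 and 8.40 in wild type, and by 0.33 in replicates 4 and 5. Fyn, a Src-family kinase, differed by -0.36 and 0.12, with KO2 at 9.95 close to WT2 at 9.97 and KO3 at 9.37.

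The adaptors and scaffolds hold the signalling complex together. All 7 were lower in replicates 2 and 3 (median -0.79), and 4 of the 7 were lower in replicates 4 and 5 (median -0.02). Lcp2, which encodes SLP-76, read 10.13 in WT1 and 9.81 in KO1, 11.89 (WT2) and 11.87 (WT3) against 10.71 (KO2) and 11.20 (KO3), and 9.85 (WT4) and 9.71 (WT5) against 9.57 (KO4) and 9.63 (KO5). Every knockout array was below every wild-type array of its set as deposited, but under quantile normalization Lcp2 was 0.18 higher in replicates 2 and 3. The differences were -0.93 in replicates 2 and 3, -0.18 in replicates 4 and 5 and -0.50 ± 0.16 (SE, n = 5 per genotype) over all arrays (limma, adjusted p = 0.218).

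Vav1, an exchange factor for RAC that also acts as a scaffold, read 8.21 in WT1 and 7.87 in KO1, 9.19 (WT2) and 9.13 (WT3) against 8.72 (KO2) and 7.91 (KO3), and 8.92 (WT4) and 8.62 (WT5) against 8.79 (KO4) and 8.67 (KO5). KO3 was the array farthest below wild type, and the gene-level arrays overlapped. Its all-array difference was -0.42 ± 0.19 (SE; adjusted p = 0.317). Themis, a scaffold best known from thymocyte selection, was lower in all 5 knockout arrays than the wild-type mean of the set, with differences of -0.79 in replicates 2 and 3 and -0.15 in replicates 4 and 5. For Themis too, the share of all genes with all 5 below was not counted. Lat, the membrane adaptor that ZAP-70 phosphorylates, differed by -0.89 and 0.21, and Grap2, which links LAT to SLP-76, by -0.61 and 0.20. Nck1, an adaptor to the actin cytoskeleton, and Trat1, a membrane adaptor associated with the TCR, were higher in KO1 than in WT1, by 0.39 and 0.47. In replicates 2 and 3 Nck1 differed by -0.30 and Trat1 by -0.54, and in replicates 4 and 5 by 0.34 and -0.02.

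All 6 genes of second messengers, RAS and NF-kappaB were lower in replicates 2 and 3 (median -0.75), and 2 of the 6 were lower in replicates 4 and 5 (median 0.08). Malt1, a paracaspase of the NF-kappaB branch, read 8.0 in WT1 and 7.76 in KO1, 9.49 (WT2) and 9.61 (WT3) against 9.18 (KO2) and 8.28 (KO3), and 8.71 (WT4) and 9.27 (WT5) against 8.85 (KO4) and 8.72 (KO5). The knockout arrays were lower in the exon-level table, KO3 most of all, while WT4 and both gene-level knockout arrays were alike. The all-array difference of Malt1 was -0.46 ± 0.19 (SE, n = 5 per genotype; limma, adjusted p = 0.306).

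Prkcq, which encodes PKC-theta, read 8.48 in WT1 and 8.36 in KO1, 9.75 (WT2) and 9.73 (WT3) against 9.05 (KO2) and 8.47 (KO3), and 9.73 (WT4) and 9.49 (WT5) against 9.66 (KO4) and 9.63 (KO5). Its genotypes separated in replicates 2 and 3, by -0.98, and overlapped in replicates 4 and 5, with -0.40 ± 0.19 (SE; adjusted p = 0.35) over all arrays. Rasgrp1, the exchange factor through which diacylglycerol activates RAS, was chosen after its values were seen: it differed by -0.93 in replicates 2 and 3 and by 0.41 in replicates 4 and 5, where WT4 and WT5 read 9.24 and 9.03 and KO4 and KO5 read 9.61 and 9.50 (adjusted p = 0.149 in that set). Sos1, another RAS exchange factor, differed by -0.59 and 0.33. Plcg1, the phospholipase that makes the second messengers, differed by -0.68 and 0.12. Bcl10 differed little, by -0.16 and -0.02.

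In the calcium-NFAT branch all 5 genes were lower in replicates 2 and 3 (median -0.93), 1 of 5 was lower in replicate 1 and 2 of 5 were lower in replicates 4 and 5 (median 0.20). Ppp3cb, a catalytic subunit of calcineurin, read 7.62 in WT1 and 7.68 in KO1, 8.92 (WT2) and 8.94 (WT3) against 8.76 (KO2) and 7.23 (KO3), and 8.50 (WT4) and 8.53 (WT5) against 8.42 (KO4) and 8.58 (KO5). Only KO3 lay far from wild type. Its difference over all arrays was -0.36 ± 0.26 (SE, n = 5 per genotype; limma, adjusted p = 0.48).

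Ppp3ca, the other catalytic subunit on the list, read 6.33 in WT1 and 6.43 in KO1, 7.64 (WT2) and 7.62 (WT3) against 7.05 (KO2) and 6.27 (KO3), and 6.47 (WT4) and 6.34 (WT5) against 6.58 (KO4) and 6.63 (KO5). It was lower in replicates 2 and 3 and higher in the other sets, with -0.29 ± 0.22 (SE; adjusted p = 0.493) over all arrays. Nfatc3, an NFAT factor named after its values were seen, had the largest difference of the members in replicates 4 and 5, with WT4 and WT5 at 8.45 and 8.35 and KO4 and KO5 at 8.84 and 8.91. That difference was 0.48 (95% interval 0.20 to 0.76; limma, adjusted p = 0.0821), and the same gene differed by -0.95 in replicates 2 and 3. Nfatc1 and Nfatc2, the NFAT factors most studied in T cells, differed by -0.27 and -0.54 in replicates 2 and 3 and by 0.20 and -0.12 in replicates 4 and 5.

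The negative regulators showed the same split between sets. All 8 were lower in replicates 2 and 3 (median -0.45), and 1 of the 8 was lower in replicates 4 and 5 (median 0.15). Dgka, a diacylglycerol kinase that removes the activator of RASGRP1, read 10.92 in WT1 and 10.42 in KO1, 12.15 (WT2) and 12.21 (WT3) against 10.48 (KO2) and 10.07 (KO3), and 11.33 (WT4) and 11.22 (WT5) against 11.20 (KO4) and 11.42 (KO5). As with Cd3g, the exon-level knockout arrays were below wild type and the gene-level arrays overlapped. The difference of -1.90 in replicates 2 and 3 was the largest of the 37 as deposited and -0.76 under quantile normalization, which turned replicate 1 to 0.09 higher, and the all-array value was -0.84 ± 0.29 (SE, n = 5 per genotype; limma, adjusted p = 0.247).

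Ptpn6, which encodes the phosphatase SHP-1, read 8.62 in WT1 and 8.44 in KO1, 9.70 (WT2) and 9.71 (WT3) against 9.38 (KO2) and 9.18 (KO3), and 9.12 (WT4) and 9.12 (WT5) against 8.83 (KO4) and 8.94 (KO5). As deposited it was lower in the knockout in every set without overlap, but under quantile normalization it was 0.13 higher in replicates 2 and 3. The deposited differences were -0.18, -0.42 and -0.24, and -0.30 ± 0.11 (SE; adjusted p = 0.257) over all arrays. Csk, the kinase that holds Src-family kinases inactive, differed by -0.59 in replicates 2 and 3 and 0.20 in replicates 4 and 5. The ubiquitin ligase genes Cbl and Cblb differed by -0.50 and -0.39 in replicates 2 and 3 and by 0.12 and 0.18 in replicates 4 and 5. Cblb was 0.50 higher in KO1 than in WT1. The phosphatase gene Ptpn22 differed by -0.42 and 0.19, Ubash3a, whose product dampens ZAP-70 signalling, by -0.48 and 0.08, and Dgkz, a second diacylglycerol kinase, by -0.12 and 0.26.

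**Figure D2:**
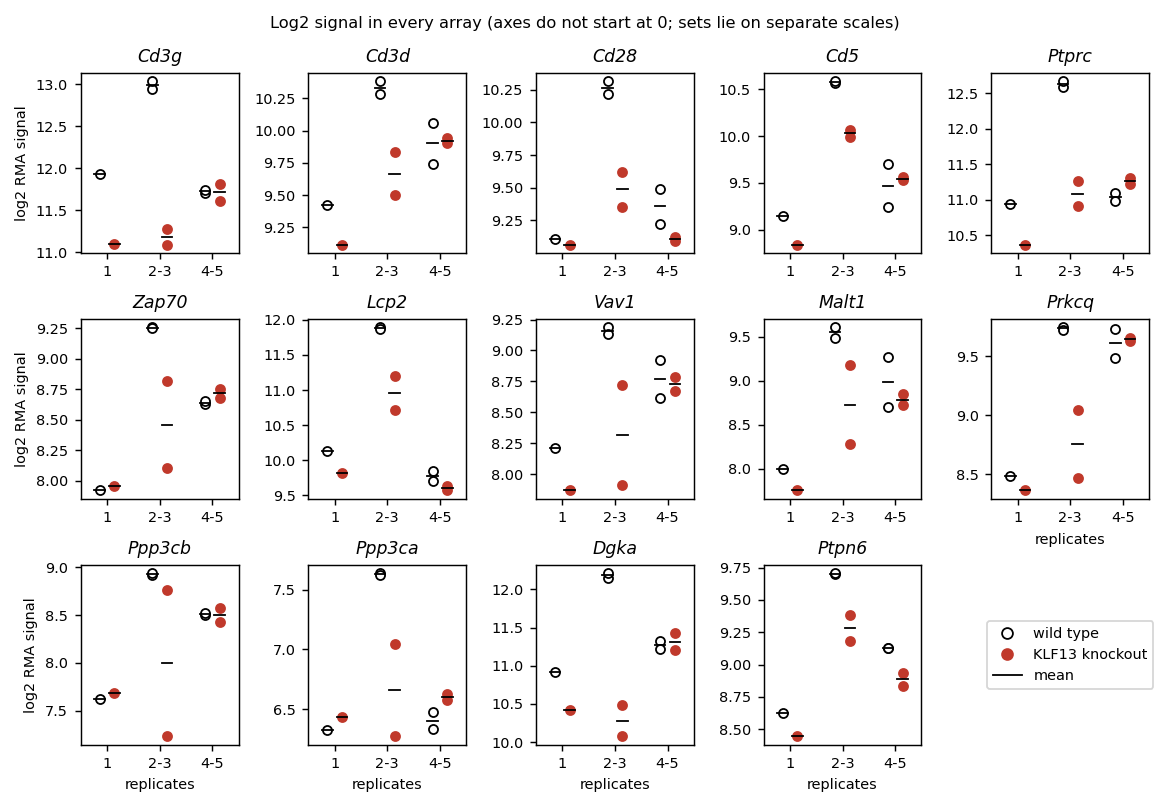
Log2 signal (y axis, own scale per gene) of the 2 genes per pathway step with the largest all-array difference, by replicate set (x axis); open circles are wild-type arrays, filled circles knockout arrays and bars means. In replicates 2 and 3 the knockout arrays lie below wild type in all 14 panels as deposited (Cd3d, Cd5, Lcp2 and Ptpn6 turn under quantile normalization), while in replicates 4 and 5 they lie without overlap below for Cd28, Lcp2 and Ptpn6 and above for Ptprc, Zap70 and Ppp3ca.

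Fitted alone, neither 2-against-2 set called a TCR pathway gene. In replicates 2 and 3, 0 of 37 passed, as did 0% of all genes, and the smallest adjusted p of a member was 0.297. At an unadjusted p under 0.05 there were 17 members, all lower, against 9.53% of all genes. In replicates 4 and 5, 0 of 37 passed, where 2.71% of all genes did. At an unadjusted p under 0.05 there were 3 members, Txk, Rasgrp1 and Nfatc3, all higher, against 16% of all genes.

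The gap between the sets was tested directly, as the knockout minus wild type difference in replicates 4 and 5 less that in replicates 2 and 3. Its median was 0.72 for the members and 0.17 for all genes, and 0 of 37 passed, as did 0% of all genes (smallest adjusted p of a member 0.175). At an unadjusted p under 0.05 there were 20 members, against 11.2% of all genes. The fit took 1 variance per gene for both sets. The SD of the members' median between arrays of a genotype was 0.30 in replicates 2 and 3 and 0.08 in replicates 4 and 5, so the intervals hold for neither set alone. The sets also differ in table and in how probe sets were joined, which cannot be told apart. The estimates were widest apart for Dgka, at 1.94 (95% interval 1.32 to 2.57), Cd3g, at 1.79 (1.24 to 2.34), and Ptprc, at 1.77 (1.18 to 2.35). Many probe sets of these genes were bright, where KO2 was compressed, as described below. On exon-level probe sets with a mean under 10, Dgka differed by -1.61 and Ptprc by -0.23 in replicates 2 and 3. Cd3g had no such probe set. Against the wild-type mean, KO2 and KO3 stood at -1.70 and -2.11 for Dgka, -1.90 and -1.71 for Cd3g, and -1.71 and -1.37 for Ptprc. How far compression set these sizes was not tested. Under quantile normalization the gaps were 0.86, 0.43 and 0.48, and the widest were those of Txk (1.08), Ppp3ca (1.08) and Nfatc3 (1.07).

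The results of replicates 2 and 3 depended on which knockout array was read. For 31 members KO3 read below KO2, and for 6 it read above. Without KO3, the members' all-array median was -0.09 rather than -0.25, still with 0 of 37 called, where 2.9% of all genes were. Without KO3, the fit of replicates 2 and 3 alone called 23 members, all lower, where 20% of all genes passed, and without KO2 it called 34, where 77% of all genes passed. With either knockout array left out the spread came from the wild-type arrays alone, and the lone knockout array was assumed to vary as they did. The test between sets likewise called 11 members without KO3 (all genes, 5.28%) and 32 without KO2 (all genes, 53.4%).

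The differences of replicates 2 and 3 also moved with signal level. With all genes tested split into 10 bands of equal size by their mean level in these arrays, the median difference went from 0.21 in the dimmest band to -0.67 in the brightest. The TCR pathway genes were mostly bright: 18 of 37 lay in the brightest band, and 9 of these 18 were below its median. Over all bands 22 of 37 members were below the median of their own band. Relative to it Dgka stood at -1.23, Cd3g at -1.13, Ptprc at -0.87, Ppp3ca at -0.65 and Txk at -0.57, and at the other end Fyn at 0.31 and Dgkz at 0.30. The members on dim probe sets only, and under quantile normalization, are given below.

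**Figure D3:**
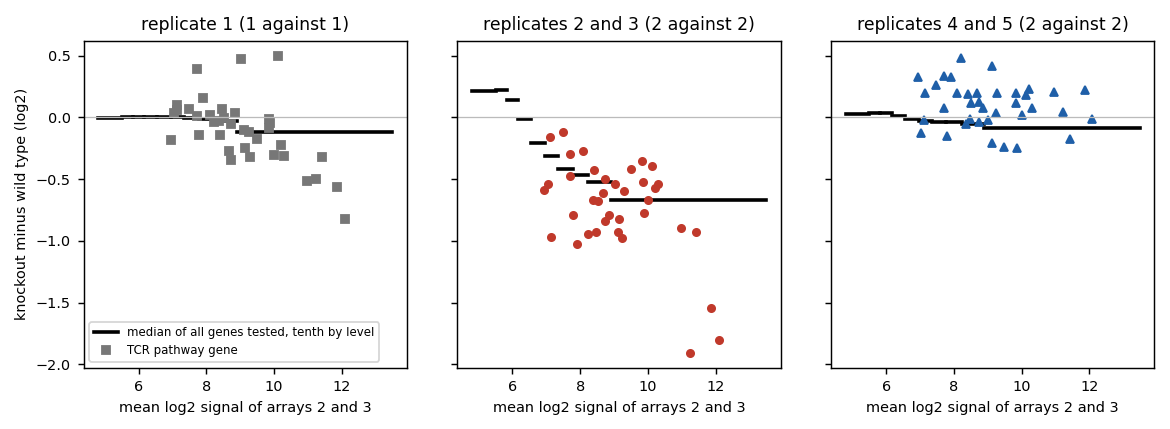
Knockout minus wild type (log2, y axis) against the mean log2 signal of the arrays of replicates 2 and 3 (x axis), in 1 panel per set; points are the 37 TCR pathway genes and black bars the medians of all genes tested in 10 bands of level. In replicates 2 and 3 the bars fall from 0.21 to -0.67, and Dgka, Cd3g and Ptprc lie farthest below them.

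The probe sets showed where on the scale this happened. The 37 genes had 621 exon-level probe sets, of which 541 were lower in the knockout in replicates 2 and 3 and 387 in replicate 1. The same count was not made over all probe sets of the array. Of all probe sets, those with a wild-type mean of 8 to 9 also had lower medians in the knockout. They were 8.46 in WT2 and 8.50 in WT3, against 8.31 in KO2 and 7.73 in KO3. All 8 of Cd3g, all 26 of Dgka and 31 of the 33 of Ptprc were lower in replicates 2 and 3. For 45 probe sets of 8 members the mean of WT2 and WT3 was 13 or more, up to 14.97, and 19 of these belonged to Ptprc, 10 to Dgka and 4 to Cd3g. In KO2 all 45 read between 10.9 and 11.9, so that values spread over the wild-type range were compressed into a narrow one.

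The same was seen over all probe sets of the array. Those with a wild-type mean of 12 to 13, 13 to 14 and 14 to 15 had medians of 11.04, 11.35 and 11.65 in KO2, and of 12.42, 13.50 and 14.48 in WT2. In KO3 these medians were 11.00, 11.87 and 13.62. The band of 14 to 15 had medians of 12.74 in WT1 and 11.61 in KO1. When only exon-level probe sets with a mean under 10 were kept, 36 members had a value (Cd3g had no such probe set). All 36 were lower in replicates 2 and 3, with a median of -0.50 against -0.20 for all genes. On these probe sets Dgka differed by -1.61, Ptprc by -0.23 and Lcp2 by -0.04. The all-gene median was not matched for level, and the share of all genes lower was not counted. With all probe sets kept, the bands of genes at 7.35 to 8.90 had medians of -0.42 to -0.52 in replicates 2 and 3.

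**Figure D4:**
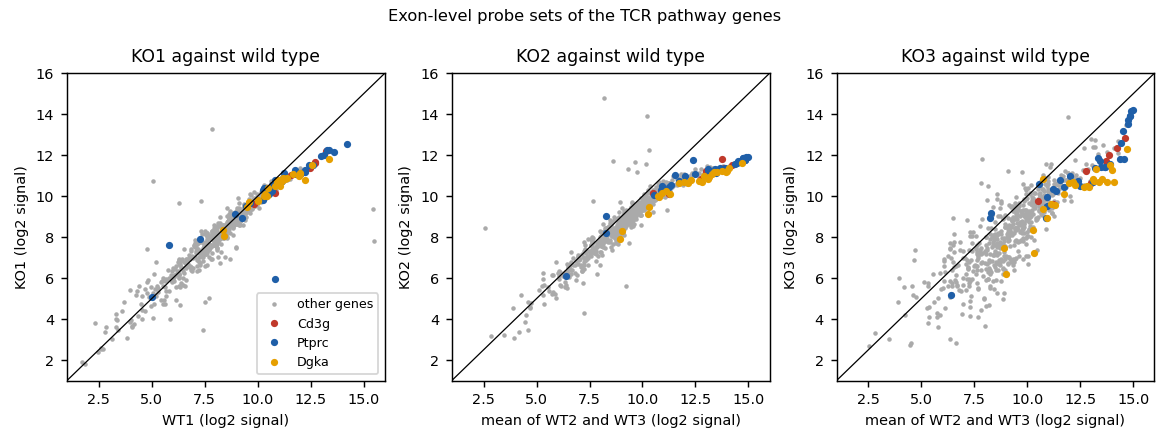
Log2 signal of the 621 exon-level probe sets of the TCR pathway genes in KO1, KO2 and KO3 (y axes) against wild type (x axes; WT1, or the mean of WT2 and WT3), with the line of equal values and the probe sets of Cd3g, Ptprc and Dgka coloured. In KO2 the probe sets bend away from the line at high levels, and all 45 at 13 or more in wild type read under 12.0, with a highest value of 11.9.

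A few probe sets ran against their gene. In 7 of the 621, KO1, KO2 and KO3 all read above the wild-type arrays of their set, and in 284 all read below. No count of this kind was made over all exon-level probe sets, so these numbers cannot be set against the array as a whole. Named after its values were seen, probe set 10358257 of Ptprc read 7.29 in WT1 and 7.90 in KO1, and 8.31 and 8.28 in WT2 and WT3 against 9.05 and 9.16 in KO2 and KO3. Its neighbour by number, 10358256, read 5.81 in WT1 and 7.62 in KO1, and differed by 0.30 in replicates 2 and 3. These were the only 2 of the 33 Ptprc probe sets that were higher in the knockout in replicates 2 and 3. Where in the gene they lie is not given in the files used here.

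Quantile normalization within each set took the median difference between sets from 0.72 to 0.23. The members' median became -0.14 in replicates 2 and 3, with 23 of 37 lower, and 0.01 over all arrays, and in replicate 1 16 of 37 were lower. The differences in replicates 2 and 3 became -0.42 for Cd3g, -0.21 for Ptprc and -0.76 for Dgka, and Ppp3ca, at -0.81, then had the largest. In replicates 4 and 5 the median was then 0.17 and 6 of 37 were lower. Nfatc3 then differed by 0.54 in that set and was the 1 member past the threshold (limma, adjusted p = 0.0442), where 2.94% of all genes passed.

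Of a wider list of 81 other genes of the pathway, 71 were in both tables and 70 were tested. Over all arrays 1 fell, where 0.488% of all genes did, and 0 rose, where 0.0961% did. Of the 70 differences 55 were below 0, with a median of -0.17 against -0.10 for all genes tested. The gene that fell was Icos, the inducible costimulator of activated T cells and a relative of CD28. It differed by -0.89, -0.97 and -0.66 in the 3 sets and by -0.83 ± 0.13 (SE, n = 5 per genotype) over all arrays (limma, adjusted p = 0.0205). In replicates 4 and 5 alone 1 of the 70 fell, where 1.99% of all genes did, and 1 rose, where 0.721% did. Icos fell (limma, adjusted p = 0.0279), and Btla, an inhibitory receptor named after its values were seen, rose by 0.66 (adjusted p = 0.0425), having differed by -0.35 in replicates 2 and 3. The call of Icos over all arrays was lost under quantile normalization (-0.49 ± 0.09) and with the 2 tables as the block, where the difference was the same and its SE was 0.35. In replicates 2 and 3, 65 of the 70 were lower, where 65.1% of all genes were, with a median of -0.50 against -0.22 for all genes.

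Of the 7 markers of T cells 6 were measured. All of these but Cd2 were themselves TCR pathway members, so their mean was bound to follow the members. That mean log2 level was 9.67 to 10.75 in wild-type arrays and 9.32 to 10.14 in knockout arrays, with differences of -0.35, -0.89 and 0.05 in the 3 sets. Cd2 alone differed by -0.39, -1.08 and 0.05. Markers of B cells (6 of 7 measured) had a mean of 3.62 to 5.44 in wild type and 3.75 to 5.65 in the knockout, and differed by 0.15 in each set, with 2 of the 6 above the filter on dim genes. Markers of myeloid and dendritic cells (7 of 8) had 3.97 to 5.13 and 3.92 to 5.29, with differences of -0.05, 0.21 and 0.13. In the 3 sets, those of basophils and mast cells (4 of 4) differed by 0.29, 0.41 and -0.07, the 1 erythroid marker measured by 0.33, 0.17 and 0.27, and those of NK cells (4 of 4) by -0.13, 0.09 and 0.04. Those of plasma cells (3 of 3) differed by 0.02, -0.11 and -0.10, and of stromal and endothelial cells (4 of 4) by 0.05, 0.12 and 0.09. Genes of low level as a whole were higher in the knockout in replicates 2 and 3, by a median of 0.21 in the dimmest band. The part of other cells in the members' differences was not tested.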

How the data were processed

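Per the labels' protocols, RNA of activated T cells from 5 wild-type and 5 KLF13 knockout mice was amplified from oligo(dT) primers and hybridised to Affymetrix arrays. The authors deposited signals made with RMA, as the submitters' processing notes state, which lie on a log2 scale. The RMA version and the grouping of arrays for it were not given in the sources used here. Array data carry no read depth, and the number of arrays limits the precision.

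The exon-level table (replicates 1 to 3) had 241576 probe sets, 212097 of them with 1 gene, 4475 with several and 25004 with none. The gene-level table (replicates 4 and 5) had 35556, with 21797, 1613 and 12146. Names came from the platform annotation, and 2742 and 19 symbols were updated through RefSeq (GRCm38.p6). Probe sets of a gene (median 8 over all genes) were averaged in the exon-level table, and the brightest was taken in the gene-level table. Both tables held 19054 genes, and a gene was tested if its mean log2 reached the 30th percentile of either table separately, which 12489 did in both.

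Fits used limma 3.58.1 in R 4.3.3 (lmFit and eBayes, 2-sided, Benjamini-Hochberg over all genes tested, threshold 0.05), with the 3 sets (replicate 1; 2 and 3; 4 and 5) as a block, within sets, and between sets. The scripts were tested on simulated data. The members, the lists and the rule for named genes were chosen with earlier results of these data known. All members are given, and every array is printed for those past the threshold in any of the 4 fits as reported (0 were) and for the 2 per step with the largest all-array difference, and of the wider list those past the threshold. Alternatives were quantile normalization, subtraction of array medians, the median over probe sets, the mean over gene-level probe sets, other filters and blocks, trend and robust variances, and leaving out each array. Keeping only exon-level probe sets under 10 was chosen after seeing the data.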

Additional observations from a re-analysis of the deposited data

Results flagged for a closer look

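For 3 of the 37 TCR pathway genes, KO3 lay far from the other knockout arrays when each of the 5 was expressed as its difference from the wild-type mean of its set. Ppp3cb, a catalytic subunit of calcineurin, stood at -1.70 in KO3, and the nearest other knockout array was at -0.16, a gap of 0.870 of the whole range. Malt1, the paracaspase of the NF-kappaB branch, stood at -1.27 against -0.37 for the nearest, a gap of 0.797 of the range. Fyn, a Src-family kinase, stood at -0.65 against -0.08, a gap of 0.727. Dixon's critical value for 5 samples is 0.71, and chance alone exceeds it in about 1 in 20 groups of like samples. Here the 5 differences came from 3 sets, so that rate need not hold. The count was made for the members only, without a share over all genes tested. KO3 is the array that stood apart over the whole array.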

How the results depend on the processing

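No member passed the threshold over all arrays under any alternative run, including the one added after seeing the data. Quantile normalization moved the members' median to 0.013 over all arrays (0.023 with the median over exon-level probe sets), -0.14 in replicates 2 and 3 and 0.23 between sets, called 1 member in replicates 4 and 5, and called 0 genes of the wider list, as did the 2 tables as the block. Leaving out 1 array at a time gave 0 to 34 called members in replicates 2 and 3, and 0 to 32 between sets, where the median was 0.51 to 0.96. Only the fits without KO2 or KO3 called any. The all-array median was -0.31 to -0.09 in these fits. Over all genes the all-array count was 73 as reported, 12 to 362 with 1 array left out, 44 with quantile normalization, 35 with array medians subtracted, 31 with the median over exon-level probe sets, 36 with both that median and quantile normalization, 48 on probe sets under 10, 23 with the replicate block and 4 with the tables as the block. In replicates 4 and 5 it was 339 as reported, and 193 without KO4 and 534 without WT5.

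The deviations of same-numbered arrays had a correlation of -0.42 in replicates 2 and 3 and of -0.24 in replicates 4 and 5. Each value rests on few arrays, and that of replicates 2 and 3 also on KO2, which was compressed, and KO3, which stood apart. The correlations therefore cannot decide whether same-numbered arrays were handled together. With the replicate block, 3 members were called in replicates 2 and 3 (Cd3g, adjusted p = 0.00162; Ptprc, 0.0136; Dgka, 0.00062), where 85 of all genes were, and 0 in replicates 4 and 5 and over all arrays, while 661 genes were called in replicates 4 and 5. Causes were not tested.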
